A study of Homo sapiens with 9 samples.

Results

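MCL1 and 9 related genes of the BCL2 family were followed across 9 arrays of a human hepatocellular carcinoma line. The members were MCL1, BCL2L1, BCL2, BAX, BAK1, BID, BAD, BCL2L11, BBC3 and PMAIP1. All 10 were measured, each by 1 probe set annotated to that gene alone, among 18417 genes in all. The set was chosen by its lead gene: MCL1 was proposed with its fall between YAP siRNA and nonsense siRNA known, and the other 9 are its textbook relatives, listed with their values known too. The values of the members are therefore given as a description, with the standard error (SE) of the fit and no test.

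The labels name the line as Hep3B, while the sample titles begin with HUH. The 9 samples formed 3 groups of 3. Untreated cells and cells given a nonsense siRNA served as controls, and the third group received an siRNA against YAP. Short double-stranded RNAs of this kind direct the breakdown of the transcript they match, and YAP, the product of YAP1, is a transcriptional coactivator restrained by the Hippo pathway. All cells grew for 24 h in full medium, the transfected cells received siRNA with Oligofectamine, and their RNA was taken 24 h later. The untreated cells had no transfection, so they differ from the other groups by the transfection itself as well as by the siRNA. Time in culture may differ as well, because the 24 h after transfection applies to the transfected cells only. Neither the siRNA sequences nor their number was stated in the labels. Nothing in the labels tells whether replicates were grown as separate cultures, so errors and p-values measure only the spread between these samples, which may be technical. RNA was measured as total RNA of each culture, in which fewer cells of a kind and less RNA per cell cannot be told apart.

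Values were array signals on the log2 scale, in which a difference of -1 would be a halving of the signal. YAP1 signal was 8.78, 8.62 and 8.69 in untreated cells, 8.66, 8.75 and 8.68 after nonsense siRNA and 7.54, 7.52 and 7.48 after YAP siRNA, so the targeted transcript was low on every array labelled YAP siRNA. Array medians over genes differed by at most 0.05. Of 12 hepatocyte and hepatoma markers measured, 12 lay above the median over genes of 7.31, among them ALB at 11.5 and AFP at 12.4, while 0 of 4 leukocyte markers did (PTPRC at 5.99) and 2 of 6 stromal and endothelial markers did (COL1A1 at 8.39 and COL1A2 at 8.37). After group means were removed, replicate 3 of YAP siRNA deviated together with replicate 2 of nonsense siRNA (r = 0.47 across genes, which are not independent replicates) and with replicate 3 of untreated cells (r = 0.34). Differences of MCL1, BCL2L1 and BAK1 are also given without those 3 arrays.

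Proteins of the BCL2 family decide whether the outer membrane of the mitochondrion is breached, a step that commits a cell to apoptosis. MCL1, BCL2L1 (whose long form is BCL-XL) and BCL2 keep cells alive by binding the killers of the family. BAX and BAK1 are the effectors that form pores in the membrane, and the BH3-only proteins BID, BAD, BCL2L11 (BIM), BBC3 (PUMA) and PMAIP1 (NOXA) carry stress signals by activating the effectors or by occupying the survival proteins. MCL1 has a short-lived protein and transcript, PMAIP1 binds it preferentially, and hepatocytes are known to depend on MCL1 and BCL2L1 for survival.

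Promoter sequences were available from RefSeq (GRCh38.p14) for 9 of the 10 members, and MCL1 was the member with no entry. In the 250 bases before each annotated start (15 windows of 9 genes) 4 short motifs were searched on both strands. The core bound by the TEAD partners of YAP, GGAATG, was in windows of 0 of the 9 members and in 11.9% of all 35116 windows. The GC box GGGCGG was in windows of 6 members (42.6% of all windows), CCAAT in those of 5 (32.0%) and the E-box CACGTG in those of 3 (6.34%), BAX, BID and BBC3. A member was counted if any of its windows held a match, while the percentages are of single windows, so counts and percentages are not like for like. A match describes the letters only, and sequence outside these windows was not searched. Shown are the windows of the members whose 3 YAP siRNA arrays all lay below 1 of the control groups beside MCL1, with motif matches on either strand in capitals (ATTGG is CCAAT on the other strand), 5′ to 3′ along the gene; no 2 matches shown overlap. BCL2L11 lies on the plus strand (chr2:111120664-111120913) and holds 3 GC boxes and 1 CCAAT box in a window of 76.8% G and C, and the outermost of the windows of BCL2L1, the other with no match either, lies on the minus strand (chr20:31723964-31724213) and holds no match.
BCL2L11: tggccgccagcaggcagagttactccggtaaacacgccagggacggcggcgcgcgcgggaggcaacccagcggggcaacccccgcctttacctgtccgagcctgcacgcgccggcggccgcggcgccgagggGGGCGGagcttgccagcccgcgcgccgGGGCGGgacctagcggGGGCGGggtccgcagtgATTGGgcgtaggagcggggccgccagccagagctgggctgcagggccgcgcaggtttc
BCL2L1: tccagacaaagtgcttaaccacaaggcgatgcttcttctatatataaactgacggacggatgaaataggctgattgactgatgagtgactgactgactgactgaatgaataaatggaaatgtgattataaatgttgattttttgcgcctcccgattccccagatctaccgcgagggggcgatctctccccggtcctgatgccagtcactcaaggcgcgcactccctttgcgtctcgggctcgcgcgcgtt

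MCL1 was the member that separated the YAP siRNA arrays from both control groups. Its signal was 10.05, 9.97 and 10.02 in untreated cells, 10.15, 10.21 and 10.18 after nonsense siRNA and 9.27, 9.26 and 9.15 after YAP siRNA. The 3 YAP siRNA arrays lay below all 6 control arrays, with a gap of 0.70 between the highest of them and the lowest control array, against a pooled SD within groups of 0.05. Group means were 10.01 ± 0.04 (SD, n = 3), 10.18 ± 0.03 (SD, n = 3) and 9.23 ± 0.07 (SD, n = 3) in that order. MCL1 thus fell by 0.95 against nonsense siRNA (SE 0.0535), to 51.6% of that level, and fell by 0.78 against untreated cells (SE 0.0535), to 58.1%. In order of size, it was the sixth fall of 18417 genes against nonsense siRNA (YAP1 itself was at -1.18) and the fifth against untreated cells (YAP1 at -1.19).

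The nonsense siRNA arrays of MCL1 also lay above the untreated ones. Their mean was higher by 0.17 (SE 0.0535), or 113% of the untreated level, and 0.11 higher with quantile normalization. The fall was therefore larger against the transfected control than against untreated cells, comparisons that share the YAP siRNA arrays. Leaving out any 1 array moved the fall to between -0.98 and -0.91 against nonsense siRNA and to between -0.81 and -0.74 against untreated cells. Without the 3 arrays that deviated together the values were -0.90 and -0.74. The probe set is annotated to 3 RefSeq transcripts of MCL1, whose products include a long survival form and a short form with the opposite activity, and it gives 1 value for them together.

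**Figure D1:**
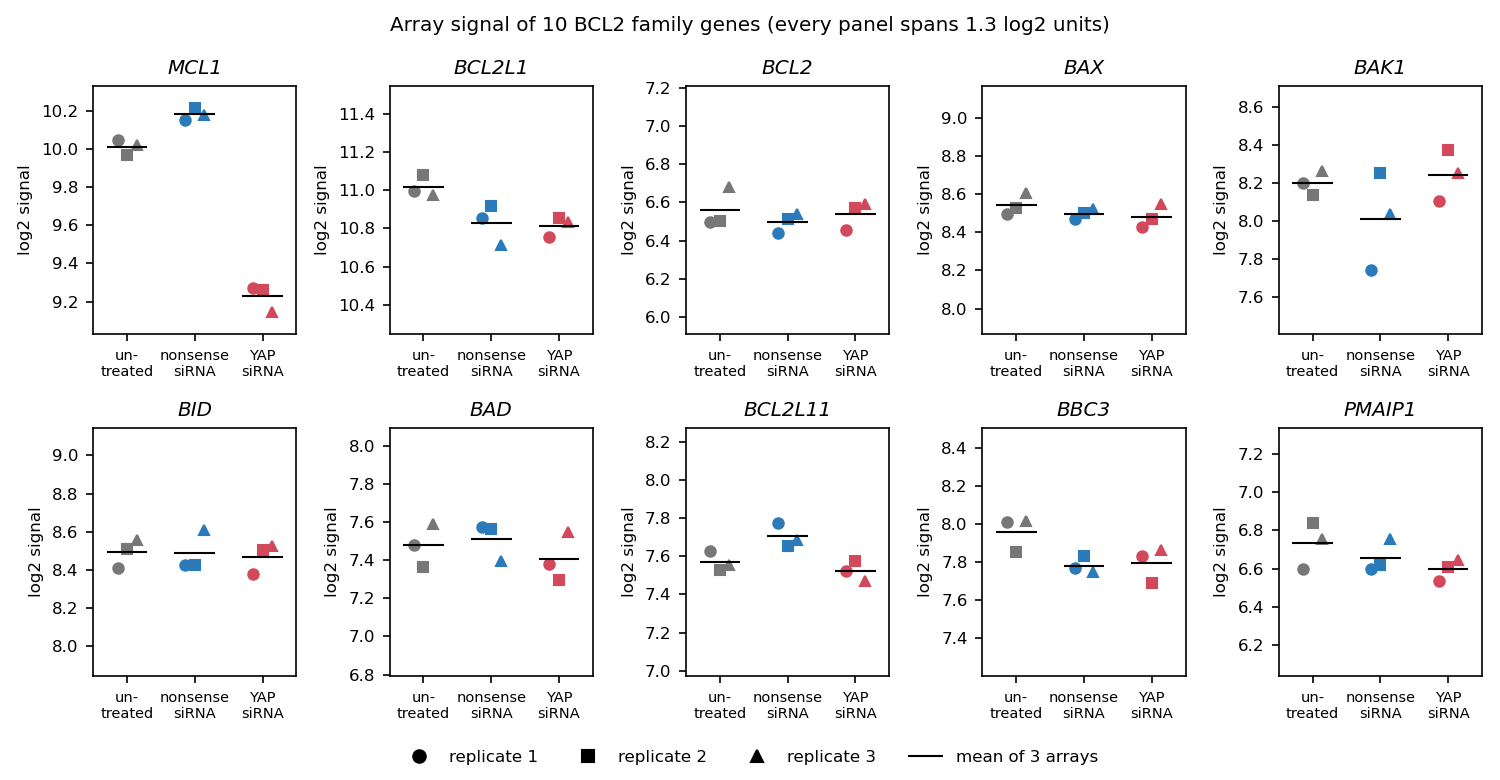
Log2 array signal (vertical axis, every panel spanning the same height) of the 10 members on the 9 arrays, by group, with replicates as symbols and group means of 3 arrays as lines. MCL1 drops from 10.01 and 10.18 in the control groups to 9.23 after YAP siRNA, while the group means of every other member differ by at most 0.23.

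BCL2L1, a survival gene like MCL1, did not follow it between the siRNA groups. BCL2L1 signal was 10.99, 11.08 and 10.98 in untreated cells, 10.85, 10.91 and 10.71 after nonsense siRNA and 10.75, 10.86 and 10.83 after YAP siRNA. Both siRNA groups lay below the untreated arrays and overlapped each other. Against untreated cells BCL2L1 differed by -0.20 after YAP siRNA (SE 0.0607) and by -0.19 after nonsense siRNA (SE 0.0607). Between the siRNA groups the difference was -0.01 with a 95% interval of -0.14 to 0.12, which leaves out a change of the size seen in MCL1. Without the 3 arrays that deviated together BCL2L1 differed from untreated cells by -0.23 after YAP siRNA and by -0.26 after nonsense siRNA.

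BCL2 was dim, at 6.44 to 6.68 over the 9 arrays, at percentile 21.1 of genes by mean signal. Its arrays overlapped in all 3 comparisons, and it differed by 0.04 (95% interval -0.09 to 0.17) between YAP siRNA and nonsense siRNA. A dim probe set responds less to a change in its transcript, so the interval covers the signal rather than the transcript. The probe sets of BCL2L1 and BCL2 are each annotated to 2 RefSeq transcripts, which for BCL2L1 include forms of opposite activity that 1 value cannot separate.

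The arrays of the effectors overlapped between groups in all 3 comparisons. BAX signal was 8.50, 8.53 and 8.61 in untreated cells, 8.47, 8.50 and 8.52 after nonsense siRNA and 8.43, 8.47 and 8.55 after YAP siRNA, with the smallest range of the 10 members, 0.18. BAX differed by -0.02 between YAP siRNA and nonsense siRNA (95% interval -0.13 to 0.10). BAK1 signal was 8.20, 8.14 and 8.26 in untreated cells, 7.74, 8.25 and 8.04 after nonsense siRNA and 8.10, 8.37 and 8.25 after YAP siRNA. The nonsense siRNA arrays of BAK1 were the most scattered (SD 0.26), and replicate 1 was the lowest of all 9. BAK1 differed by 0.23 between YAP siRNA and nonsense siRNA (SE 0.0991), by 0.10 without nonsense siRNA replicate 1, by 0.35 without nonsense siRNA replicate 2 and by 0.35 without the 3 arrays that deviated together. Against untreated cells BAK1 differed by 0.04 after YAP siRNA (95% interval -0.17 to 0.26). It differed by -0.19 after nonsense siRNA, by -0.05 without nonsense siRNA replicate 1, by -0.31 without nonsense siRNA replicate 2 and by -0.28 without the 3 arrays.

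Among the BH3-only genes, BCL2L11 came closest to the pattern of MCL1 and remained far smaller in size. Its signal was 7.63, 7.53 and 7.55 in untreated cells, 7.77, 7.65 and 7.69 after nonsense siRNA and 7.52, 7.58 and 7.47 after YAP siRNA. The YAP siRNA arrays lay below the nonsense siRNA arrays and overlapped the untreated ones. BCL2L11 differed by -0.18 against nonsense siRNA (SE 0.0550) and by -0.05 against untreated cells (SE 0.0550), and nonsense siRNA exceeded untreated cells by 0.13. The probe set covers 17 RefSeq transcripts, so isoforms of BIM were not resolved.

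BBC3 signal was 8.01, 7.85 and 8.02 in untreated cells, 7.77, 7.83 and 7.75 after nonsense siRNA and 7.83, 7.69 and 7.86 after YAP siRNA. Like BCL2L1, it was lower in both siRNA groups than in untreated cells, by values of -0.17 after YAP siRNA and -0.18 after nonsense siRNA (SE 0.0625 for each), and 1 YAP siRNA array reached above the lowest untreated array. Between the siRNA groups BBC3 differed by 0.01 (95% interval -0.12 to 0.15).

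PMAIP1 was dim as well, at 6.54 to 6.84, and its groups overlapped in every comparison. It differed by -0.06 between YAP siRNA and nonsense siRNA (95% interval -0.20 to 0.08) and by -0.14 between YAP siRNA and untreated cells (95% interval -0.28 to 0.00). BID, which is cut by caspase 8 to link death receptors to mitochondria, ranged from 8.38 to 8.61, and BAD, which is held inactive by survival kinases, from 7.29 to 7.59. Between YAP siRNA and nonsense siRNA BID differed by -0.02 (95% interval -0.15 to 0.12) and BAD by -0.10 (95% interval -0.26 to 0.06).

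**Figure D2:**
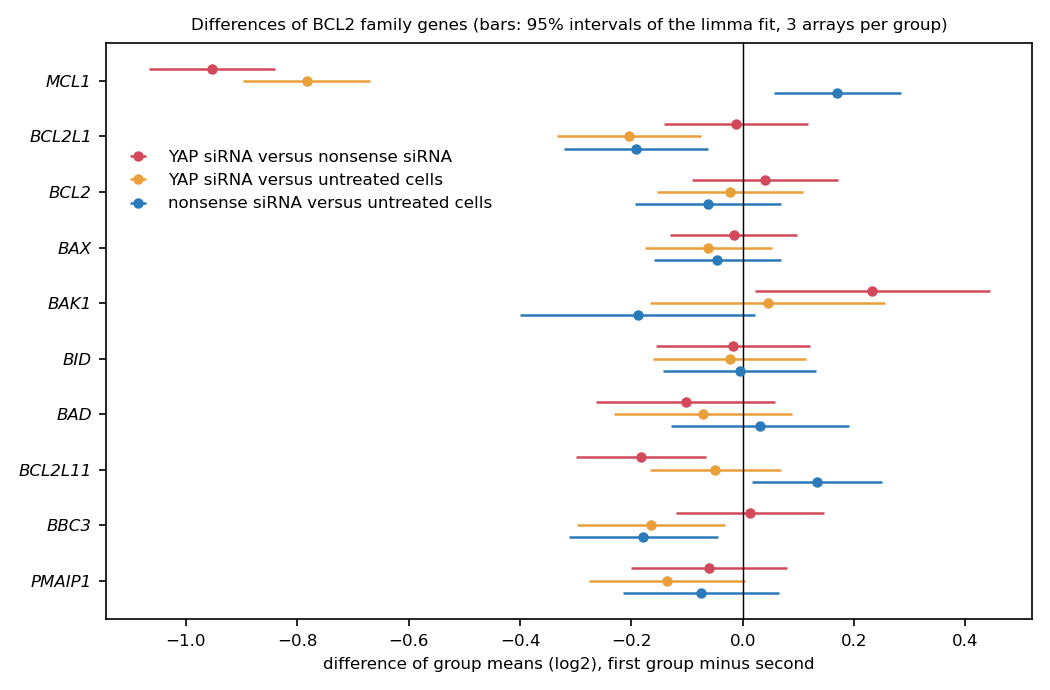
Difference of group means (horizontal axis, log2) of the 10 members in the 3 comparisons, with bars for 95% intervals of the limma fit on 3 arrays per group. MCL1 lies at -0.95 and -0.78 in the comparisons with YAP siRNA, and the other members lie between -0.20 and 0.23 in all 3.

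Counted over the set, MCL1 alone passed an adjusted p of 0.05 by limma between YAP siRNA and nonsense siRNA (1 of 10 members, where 4.53% of all genes passed) and between YAP siRNA and untreated cells (1 of 10, where 3.09% passed). In the first of these the set had been picked on the value of MCL1, so nothing is read from these counts. Between nonsense siRNA and untreated cells limma passed 0 of 10, where 0.614% of all genes passed. At an unadjusted p under 0.05 there were 4 of 10 members in that comparison, beside 19.5% of all genes. All 3 arrays of MCL1 and BCL2L11 lay beyond the other group between YAP siRNA and nonsense siRNA (2 of 10 members, against 20.2% of all genes), and those of MCL1 and BCL2L1 did between YAP siRNA and untreated cells (2 of 10, against 20.5%). Between nonsense siRNA and untreated cells 4 of 10 members did, against 22.7%: MCL1 and BCL2L11 were higher and BCL2L1 and BBC3 lower. Of the 10, only MCL1 had its YAP siRNA arrays outside the range of all 6 controls, which held for 7.9% of all genes. The median difference of the 10 members was -0.02 between YAP siRNA and nonsense siRNA (0.01 over all genes), -0.07 between YAP siRNA and untreated cells (-0.01) and -0.05 between nonsense siRNA and untreated cells (-0.02).

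The genes whose values over the 9 arrays were most like those of MCL1 came from outside the family. Among 684 genes of at least median signal whose values spanned at least 0.5, the highest Pearson r with MCL1 was that of SLC16A7, a monocarboxylate transporter gene, at 0.996. Next came PDCD4, a translation inhibitor gene (0.994), the cofilin gene CFL2 (0.994), TMTC3 (0.994), FAM168B (0.991) and the claudin gene CLDN12 (0.990). The 9 arrays share 3 groups, so these values mostly describe the differences between groups, and they are given with no test. With group means removed, r was 0.92 for SLC16A7 and 0.81 for PDCD4, and between 0.26 and 0.61 for the other 4. Such deviations were part of the values the genes were picked on. In MCL1, SLC16A7 and PDCD4 replicate 3 of YAP siRNA was the lowest of its group, at 9.15, 8.07 and 7.33. All 6 had lower means after YAP siRNA than in either control group and, as in MCL1, higher means after nonsense siRNA than in untreated cells. The genes were picked by their likeness to MCL1 on these arrays, so this shared order follows from the choice. PDCD4 came nearest to MCL1 in size, at -0.89 against nonsense siRNA, and FAM168B was smallest, at -0.58. Of the other members only BAK1 spanned 0.5 (its range was 0.63, with BCL2L1 next at 0.37), so the filter left the rest out. Taken without the filter, r with MCL1 within the family ran from -0.42 for BAK1 to 0.72 for BCL2L11, below that of each of the 6 genes.

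**Figure D3:**
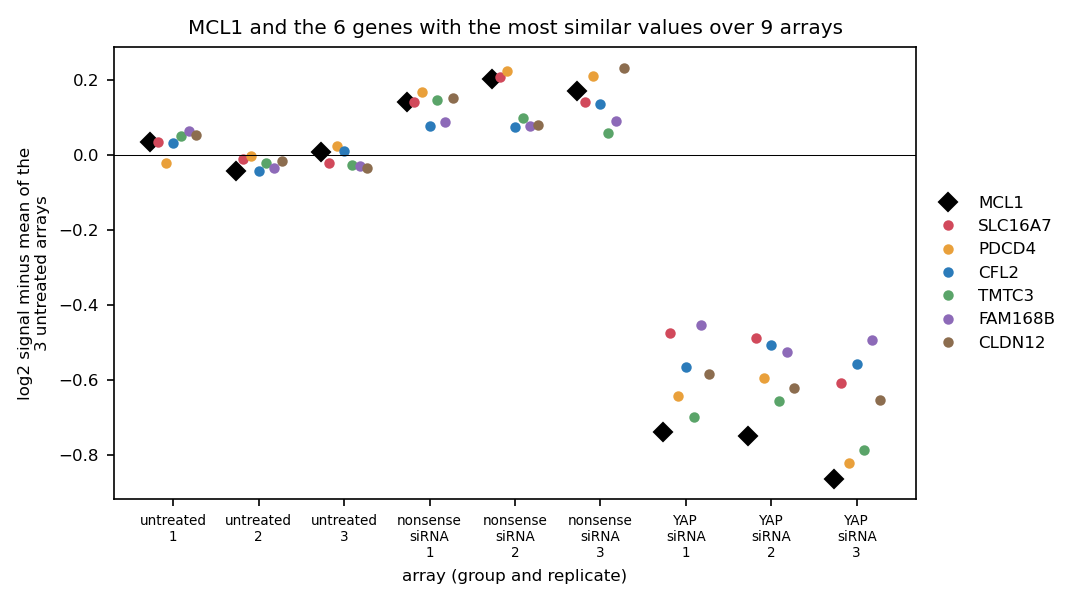
Log2 signal relative to the mean of the 3 untreated arrays (vertical axis) for MCL1 (black diamonds) and the 6 genes of highest Pearson r with it, on each of the 9 arrays. All 7 genes lie above 0 on the nonsense siRNA arrays and below 0 on the YAP siRNA arrays, with MCL1 lowest on each of the latter. The 6 were picked by likeness to MCL1 on these arrays, so the shared pattern follows from the choice.

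Genes that work around the family were taken from 5 lists of 72 genes, chosen with earlier results of these data known. Of these genes 64 were measured, and none is a member. Between YAP siRNA and nonsense siRNA 8 of them passed, 3 higher and 5 lower (12.5%, beside 4.53% of all genes), and between YAP siRNA and untreated cells 7 passed, 2 higher and 5 lower (10.9%, beside 3.09%). Between nonsense siRNA and untreated cells limma passed 0 of 64 (0.614% of all genes), with 12 of 64 at an unadjusted p under 0.05 (19.5% of all genes). The list genes were brighter than most, 53 of 64 at or above the median signal, and among genes of at least median signal 9.68%, 6.28% and 1.55% passed in the 3 comparisons, with 8, 7 and 0 list genes. Because the lists were chosen with results known, nothing is read from these shares. The count between YAP siRNA and nonsense siRNA was 2 without nonsense siRNA replicate 1 or 3. It was 2, 3 and 5 when YAP siRNA replicate 1, 2 or 3 was left out. That between YAP siRNA and untreated cells was 0 without untreated replicate 2 or YAP siRNA replicate 1, 2 without untreated replicate 1 and 3 without YAP siRNA replicate 2, and it was 17 without the 3 arrays that deviated together, when 8.47% of all genes passed. Between nonsense siRNA and untreated cells it was 8 without nonsense siRNA replicate 2 (7.98% of all genes), 1 without YAP siRNA replicate 3 (1.24%) and 11 without the 3 arrays (12.6%). All adjusted p-values below are from limma with Benjamini-Hochberg adjustment over all genes.

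Of 14 other family genes measured, BECN1 and BOK passed in a comparison with YAP siRNA. BECN1, the autophagy gene whose BH3 region binds BCL2 and MCL1, had signals of 7.91, 7.96 and 7.90 in untreated cells, 7.98, 7.79 and 8.05 after nonsense siRNA and 7.59, 7.66 and 7.57 after YAP siRNA. It fell by 0.33 against nonsense siRNA (SE 0.0646, adjusted p = 0.00598) and fell by 0.32 against untreated cells (adjusted p = 0.0123), and its YAP siRNA arrays lay below all 6 controls. BOK, a relative of BAX and BAK1, fell by 0.24 against untreated cells (SE 0.0511, adjusted p = 0.0170), but differed by -0.06 against nonsense siRNA (adjusted p = 0.655). In BOK nonsense siRNA itself differed from untreated cells by -0.18 (adjusted p = 0.113). That difference passed without nonsense siRNA replicate 2 (adjusted p = 0.04996), when 7.98% of all genes passed. It also passed without the 3 arrays that deviated together (-0.22, adjusted p = 0.0203), when 12.6% did. No other fit passed it, with adjusted p = 0.383 and 0.295 without nonsense siRNA replicate 1 or 3. The BH3-only genes BMF, BIK and HRK differed by -0.07, 0.09 and 0.01 between the siRNA groups, and the survival genes BCL2A1 and BCL2L10 by -0.02 and 0.12. The list's median was -0.01 in that comparison, beside 0.01 over all genes. In fits without 1 array BECN1 lost its call against untreated cells without untreated replicate 2 or YAP siRNA replicate 1 (highest adjusted p = 0.0662), and BOK lost its call without untreated replicate 1 or 2 or YAP siRNA replicate 1 or 2 (highest 0.0927).

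Downstream of the mitochondrion, 1 of 16 genes measured passed. APAF1, the scaffold on which caspase 9 is activated, had signals of 8.79, 8.78 and 8.72 in untreated cells, 8.69, 8.74 and 8.72 after nonsense siRNA and 8.46, 8.61 and 8.42 after YAP siRNA. It fell by 0.22 against nonsense siRNA (SE 0.0572, adjusted p = 0.0384) and fell by 0.27 against untreated cells (adjusted p = 0.0170). CASP9 differed by 0.16 between the siRNA groups, the inhibitor gene XIAP by -0.05, the cytochrome c gene CYCS by -0.07 and DIABLO by -0.01, and none of these passed. The list's median was 0.03 there, beside 0.01. Against nonsense siRNA the call of APAF1 was lost in 6 of 9 fits without 1 array (without any of the nonsense siRNA arrays, untreated replicate 2, or YAP siRNA replicate 1 or 3; highest adjusted p = 0.153), with quantile normalization (0.0628), with only the 6 arrays compared (0.0645) and without the 3 arrays that deviated together (0.120). Against untreated cells it was lost without untreated replicate 1 or 2 or YAP siRNA replicate 1 (highest 0.0978).

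Among the death receptor genes, which feed into the family through BID, those that passed were higher after YAP siRNA. Of 9 measured, 3 rose between YAP siRNA and nonsense siRNA and 2 of these also against untreated cells. In the first comparison 8 of 9 differences were above 0, beside 55.7% of all genes. Their median was 0.17, beside 0.01 over all genes. This list, like the others, was chosen with earlier results of these data known, so its direction is a description only. Against untreated cells the list's median was 0.09, beside -0.01 over all genes, and FADD and TRADD, adaptor genes of the receptors, differed by -0.12 and -0.08. CASP8, the initiator caspase that cuts BID, had signals of 7.60, 7.62 and 7.65 in untreated cells, 7.62, 7.59 and 7.60 after nonsense siRNA and 7.82, 7.87 and 7.79 after YAP siRNA, all 3 of the last above every control array. It rose by 0.23 against nonsense siRNA (SE 0.0496, adjusted p = 0.0135) and by 0.21 against untreated cells (adjusted p = 0.0330). TNFRSF10B, the TRAIL receptor gene DR5, rose from 9.25, 9.27 and 9.32 in untreated cells and 9.31, 9.32 and 9.25 after nonsense siRNA to 9.50, 9.53 and 9.52, by 0.22 (SE 0.0497, adjusted p = 0.0160) and 0.24 (adjusted p = 0.0151). TNFRSF1A, the main tumour necrosis factor receptor gene, rose by 0.19 against nonsense siRNA (adjusted p = 0.0437) and differed by 0.04 against untreated cells (adjusted p = 0.788). BID itself, the member at the end of this route, differed by -0.02 and -0.02 in these comparisons.

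Each of these calls was lost in some fits with fewer arrays. Against nonsense siRNA CASP8 and TNFRSF10B each lost it without nonsense siRNA replicate 1 or 3 or YAP siRNA replicate 1 or 2 (highest adjusted p = 0.0706 and 0.0855), and TNFRSF1A without any 1 of the 6 arrays compared (highest 0.187), with median centring (0.0726), with a trended robust variance (0.0564), with only the 6 arrays (0.0529), with the replicate number as a block (0.0665) and without the 3 arrays that deviated together (0.0645). Against untreated cells TNFRSF10B lost it without untreated replicate 1 or 2 or YAP siRNA replicate 1 or 2 (highest 0.0735), and CASP8 without those arrays or nonsense siRNA replicate 1 (highest 0.172), with a trended robust variance (0.0516), with only the 6 arrays (0.0522) and with the replicate block (0.0578).

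Genes for turnover of the MCL1 protein passed in 1 of 13 cases. GSK3A, one of the GSK3 kinases that mark MCL1 for degradation, had signals of 8.71, 8.69 and 8.55 in untreated cells, 8.61, 8.61 and 8.63 after nonsense siRNA and 8.39, 8.47 and 8.35 after YAP siRNA. It fell by 0.21 against nonsense siRNA (SE 0.0571, adjusted p = 0.0457) and fell by 0.25 against untreated cells (adjusted p = 0.0265). Its paralog GSK3B differed by -0.02 between the siRNA groups, the ubiquitin ligase genes HUWE1, FBXW7 and BTRC by -0.03, 0.06 and 0.10, and the deubiquitinase gene USP9X by -0.21, and none of these passed. The call of GSK3A against nonsense siRNA was lost in 7 of 9 fits without 1 array (without any of the nonsense or YAP siRNA arrays or untreated replicate 2; highest adjusted p = 0.156) and under 5 of 9 other settings, at adjusted p = 0.0538 to 0.0661. Against untreated cells it was lost without untreated replicate 1 or 2 or YAP siRNA replicate 1 or 3 (highest 0.128) and with median centring (0.0588).

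Of 12 transcription factor genes known to control members, HIF1A and ATF4 passed. HIF1A, the hypoxia factor gene, had signals of 10.81, 10.71 and 10.69 in untreated cells, 10.99, 10.80 and 10.95 after nonsense siRNA and 10.55, 10.56 and 10.41 after YAP siRNA. It fell by 0.41 against nonsense siRNA (SE 0.0641, adjusted p = 0.00132), a call kept in all 9 fits without 1 array (highest adjusted p = 0.0127), and differed by -0.23 against untreated cells (adjusted p = 0.0690). The latter passed with quantile normalization (adjusted p = 0.0129), without nonsense siRNA replicate 2 (0.0322) and without the 3 arrays that deviated together (0.0410), and the last 2 of these fits also called HIF1A higher with nonsense siRNA than without treatment (0.0389 and 0.0316). ATF4, the stress response factor gene, had signals of 10.22, 10.27 and 10.12 in untreated cells, 10.17, 10.17 and 10.20 after nonsense siRNA and 9.97, 10.01 and 9.93 after YAP siRNA. It fell by 0.21 against nonsense siRNA (SE 0.0537, adjusted p = 0.0386) and fell by 0.23 against untreated cells (adjusted p = 0.0258). STAT3, FOXO3, SRF and ELK1 differed by 0.13, -0.01, 0.01 and 0.09 between the siRNA groups, MYC by 0.00 and E2F1 by -0.19, and none passed. The call of ATF4 was lost in 5 of 9 fits without 1 array in each comparison: without nonsense siRNA replicate 1 or 3 or any YAP siRNA array against nonsense siRNA (highest 0.137), and without untreated replicate 1 or 2 or any YAP siRNA array against untreated cells (highest 0.124). It was also lost with quantile normalization (0.0682), the replicate block (0.0508) and without the 3 arrays that deviated together (0.0509) against nonsense siRNA, and with median centring (0.0562) against untreated cells.

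**Figure D4:**
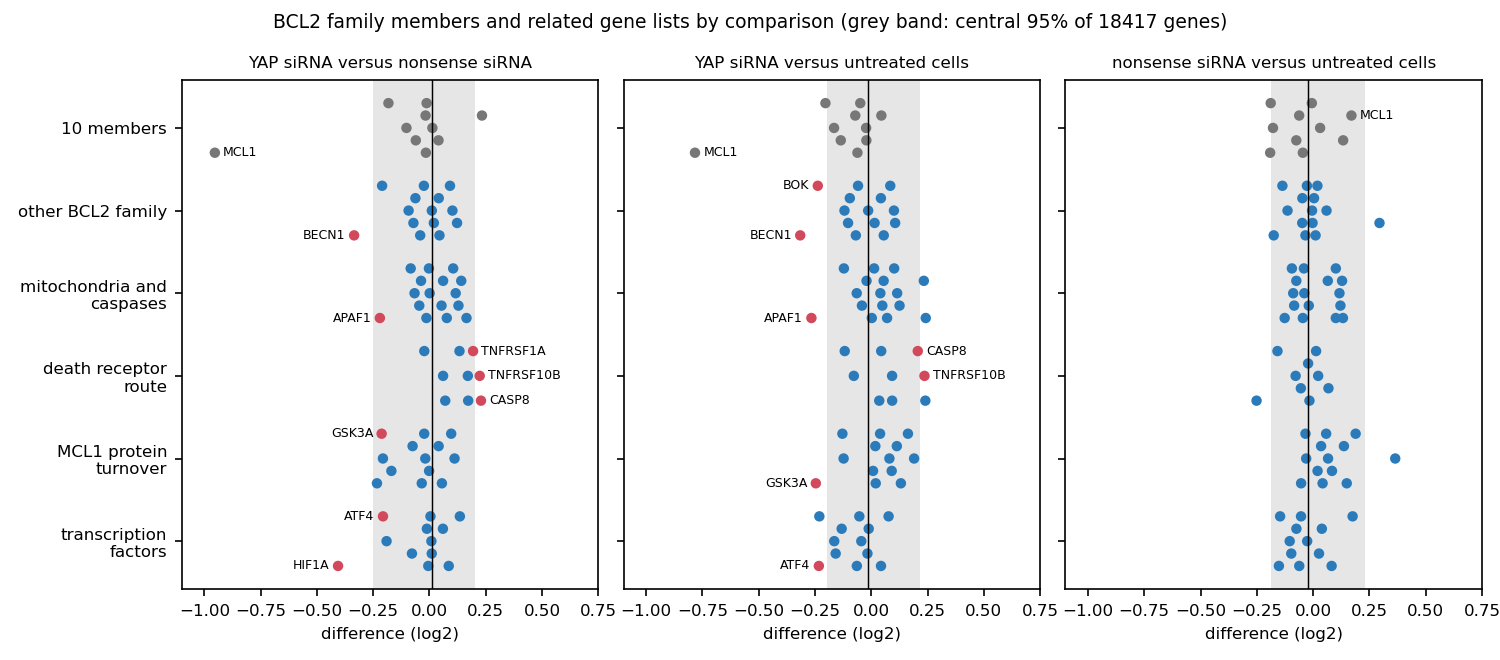
Difference of group means (horizontal axis, log2) in the 3 comparisons for the 10 members (grey points) and the measured genes of 5 related lists (blue, or red where the adjusted p was under 0.05), with the median over 18417 genes as a line and their central 95% as a grey band. MCL1 stands at -0.95 and -0.78 in the comparisons with YAP siRNA, outside the band of -0.25 to 0.20 and that of -0.20 to 0.22, while CASP8 and TNFRSF10B lie on the other side of 0.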

How the data were processed

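The deposited values were log2 array signals of 33297 probe sets on 9 arrays; their scale was read from the values, and how the authors summarised and normalized them is not given in the sources used. Probe sets were named from GEO's platform annotation, with symbols updated by gene ID (19429 of 19460 single-gene probe sets matched). For genes with several probe sets the brightest on average was used, which gave 18417 genes, and those annotated to no gene or more than 1 were dropped. Some listed genes were not analysed here.

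One mean per group was fitted over all 9 arrays (limma 3.58.1, R 4.3.3, prior degrees of freedom 9.29), and 3 differences were tested, two-sided, with Benjamini-Hochberg adjustment over all genes and a threshold of 0.05. The members and lists were chosen with earlier results of these data known. Members were named whatever their values, and list genes where they passed in any comparison; others named in passing were chosen after their values were seen. On simulated data for YAP siRNA against nonsense siRNA (18417 genes, 200 changed) the fit recovered 62.7% of changes of 0.3, 95.5% of 0.5 and 100.0% of 1, with 6 false calls. The simulated noise was independent between genes, unlike the deviations that some arrays shared here, and no change below 0.3 was simulated. The recovery and false calls may therefore not hold for these data. The number of arrays limits the precision. Alternatives were other scalings, a filter on dim genes, other uses of probe sets, another variance model, fewer arrays and the replicate block. Figures used Python 3.11.15 and matplotlib 3.10.9.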

Additional observations from a re-analysis of the deposited data

How the results depend on the processing

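MCL1 was chosen with its fall known, so the range of its values is a description only. After YAP siRNA it lay in all fits tried between -0.98 and -0.90 against nonsense siRNA (-0.90 without the 3 arrays that deviated together, chosen after seeing the data) and between -0.81 and -0.74 against untreated cells. With 1 array left out it ran from -0.98 to -0.91 and from -0.81 to -0.74. Between nonsense siRNA and untreated cells MCL1 ran from 0.15 to 0.19 with 1 array left out and was 0.11 with quantile normalization. With 1 array left out, the members that passed numbered 1 to 2 between YAP siRNA and nonsense siRNA, 1 between YAP siRNA and untreated cells and 0 to 2 between nonsense siRNA and untreated cells, and without the 3 arrays 2, 2 and 1; the second member was BAK1 in the first comparison and BCL2L1 in the second.

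List genes that passed between YAP siRNA and nonsense siRNA numbered 5 with quantile normalization, 5 with the replicate block and 2 to 8 with 1 array left out. Between YAP siRNA and untreated cells they numbered 0 to 10 with 1 array left out, when between 1.51% and 4.21% of all genes passed, and 17 without the 3 arrays, when 8.47% did. Between nonsense siRNA and untreated cells they numbered 0 to 8 with 1 array left out and 11 without the 3 arrays, when 2319 of all genes passed in place of 113; the cause was not tested. With the replicate number as a block MCL1 differed by -0.95, -0.78 and 0.17, and the counts of members stayed at 1, 1 and 0. Deviations of same-numbered arrays correlated between -0.34 and 0.34, and 5 of 9 arrays correlated best with their own number. With so few arrays these values cannot decide whether the numbers pair the samples. Dim probe sets, BCL2 and PMAIP1 among the members, were not tested under the filter on dim genes.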
